A study of Mus musculus with 8 samples.

Results

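Hand1, Hand2, Isl1, Nkx2-5, Mef2a, Mef2c, Mef2d and Srf encode 8 transcription factors of the heart fields, the mesodermal progenitor pools from which the myocardium is built. They were taken by symbol from a table of 24421 genes, all 8 were found, and all 8 passed the filter on low values. Messenger RNA had been sequenced from mouse embryonic stem cells of the W9.5 line (WT) and from Clone 104, a Hira-null line, so that the null genotype is represented by 1 clone. Each line was sampled undifferentiated at day 0 and as beating cultures at day 15 of hanging drop differentiation, with 2 libraries in each of the 4 groups, and both lines carry H3.3 tagged with HA. Hira encodes a chaperone that loads histone H3.3 onto DNA independently of replication, and the comparison asks how the level of each factor differs when that gene is mutated. The cultures are not sorted, so fewer cells of a type and less RNA per cell cannot be told apart in any of these values.

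HAND1 and HAND2 are basic helix-loop-helix proteins that pair with E proteins such as TCF3, TCF4 and TCF12 on E-box sequences; HAND1 marks the left ventricle and is also a trophoblast regulator, while HAND2 acts in the right ventricle, the outflow tract and sympathetic neurons. ISL1 is a LIM homeodomain protein of the second heart field that works with LDB1, and NKX2-5 is the homeodomain factor that binds chamber genes with GATA and T-box partners. MEF2 proteins and SRF are MADS-box factors. MEF2 is held inactive by class IIa histone deacetylases and released by kinase signals, and SRF binds CArG boxes with either myocardin family proteins at muscle genes or ETS family partners such as ELK1 at growth response genes.

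The FPKM value, a fragment count divided by gene length and library scale, could be turned back into whole fragments, of which 6914086 to 11106726 were counted per library. Hira was read first as a check of the labels. Its level was 27.3 and 28.5 FPKM in WT and 12.4 and 11.4 FPKM in Hira-null at day 0, where the null libraries were lower (log2 fold change -1.17 ± 0.10 SE, adjusted p = 8.48e-05). At day 15 it was 15.8 and 15.5 FPKM in WT and 16.7 and 19.8 FPKM in the libraries labelled Hira-null, so that the label was not borne out by a lower level there (0.20 ± 0.11 SE, adjusted p = 0.167). The value covers the gene as a whole and does not separate its exons. Every direction given below for day 15 therefore refers to libraries labelled Hira-null. The culture labels were read from marker sums. The summed level of 4 stem cell markers was 1540 to 1633 FPKM at day 0 and 240 to 318 FPKM at day 15, and 7 cardiomyocyte markers, with Nppa at 0 in all libraries of day 0, summed to 20.2 to 25.5 FPKM at day 0 and 114 to 173 FPKM at day 15.

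Promoter windows were read for the members from RefSeq on the GRCm38.p6 build, taking the 250 bases before the annotated start of transcription. The table matched 7 of the 8 members, with 9 windows. The windows of Srf, Hand2 and Isl1 are printed, Srf because its own protein binds the marked motif, and Hand2 and Isl1 because both were lower in Hira-null at day 15. Capitals mark CArG boxes in Srf (the SRF motif) and E-boxes (CANNTG) in Hand2 and Isl1.
Srf, chr17:46556163-46556412, minus strand: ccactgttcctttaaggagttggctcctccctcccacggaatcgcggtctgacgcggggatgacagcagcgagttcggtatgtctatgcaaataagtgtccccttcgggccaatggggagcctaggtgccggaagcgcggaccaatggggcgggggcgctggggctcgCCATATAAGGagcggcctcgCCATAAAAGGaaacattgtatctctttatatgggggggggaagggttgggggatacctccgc
Hand2, chr8:57320733-57320982, plus strand: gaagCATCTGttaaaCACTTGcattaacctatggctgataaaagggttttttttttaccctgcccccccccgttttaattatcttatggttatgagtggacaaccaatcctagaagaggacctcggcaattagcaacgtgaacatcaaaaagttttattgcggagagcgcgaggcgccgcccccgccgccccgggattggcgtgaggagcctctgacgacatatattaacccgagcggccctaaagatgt
Isl1, chr13:116309689-116309938, minus strand: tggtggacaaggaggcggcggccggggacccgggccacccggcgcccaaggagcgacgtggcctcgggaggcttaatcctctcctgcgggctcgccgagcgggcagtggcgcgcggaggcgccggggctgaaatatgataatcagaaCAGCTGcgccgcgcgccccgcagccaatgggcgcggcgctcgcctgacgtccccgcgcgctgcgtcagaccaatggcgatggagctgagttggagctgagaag
Matches were searched on both strands. The Srf window holds 2 CArG boxes, beginning 82 and 62 bases before the start, and such a box occurs in 1.47% of 32851 windows of the same length. The Hand2 window holds E-boxes that begin 246 and 235 bases before the start, the nearer of which overlaps a match to AAGTG, the core bound by NKX2-5. It also holds the motif AGATAA, read by the GATA factors, 172 bases before the start, and this motif is in 9.99% of all windows. The Isl1 window holds 1 E-box. E-boxes are in 66.2% and AAGTG in 40.7% of all windows, so these short matches are common, and no window of a member held a match to the MEF2 motif that 2.92% of all windows hold. These are letters in a window and not measured binding.

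Of the 8 factors, 4 were lower in the libraries labelled Hira-null at day 15 (Hand1, Hand2, Isl1 and Mef2c), none was called higher, and Nkx2-5, Mef2a, Mef2d and Srf did not pass the test. A gene was called at an adjusted p of 0.05 or less in limma over the 14337 genes that passed the filter, of which 18.8% were called lower and 18.6% higher. The median log2 fold change of the 8 was -0.59, against 0.01 over all genes tested. Hand1, Hand2, Isl1 and Mef2c had been singled out by the study on these same libraries, so their direction at day 15 is not independent evidence. At day 0, by contrast, Hand1 was lower and Mef2d higher in Hira-null, with 19.4% and 20.8% of all genes called in those directions, and the other 6 were not called. With 2 libraries against 2, an exact permutation test of a single gene could not go below 0.333, so each p-value below comes from the fit across all genes.

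**Figure D1:**
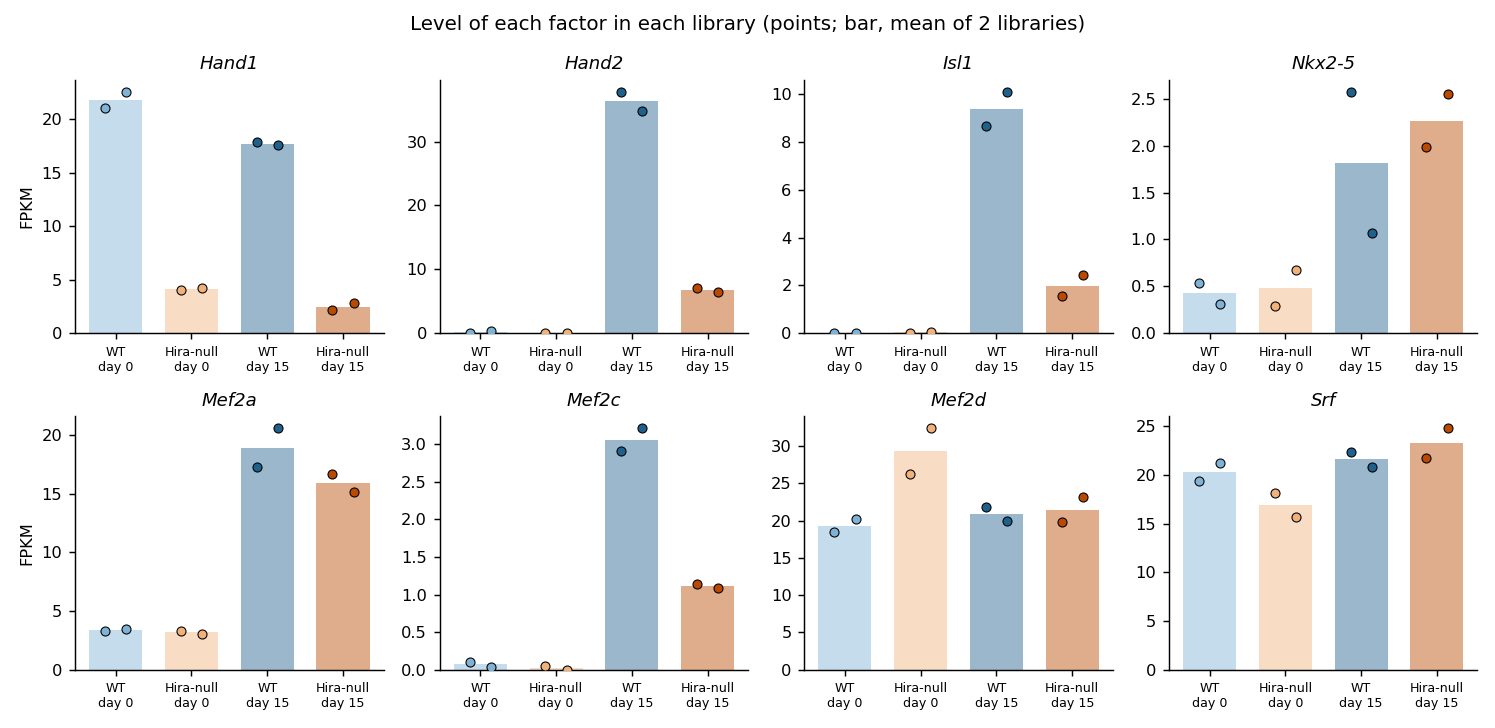
FPKM of each factor (vertical axis, scale set per gene) in each of the 8 libraries (points), with the mean of the 2 libraries of a group as a bar. Hand1 was lower in Hira-null on both days, Hand2, Isl1 and Mef2c were near 0 at day 0 and lower in Hira-null at day 15, and the Hira-null libraries of day 0 stood above the others for Mef2d.

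Hand1 (chr11:57642207-57646320 on NCBIM37, minus strand) was called lower in Hira-null on both days, alone among the 8 factors. In undifferentiated WT cells it stood at 21.0 and 22.6 FPKM, from 294 and 362 fragments, and in Hira-null cells at 4.07 and 4.26 FPKM, from 53 and 71 fragments. At day 15 it stood at 17.8 and 17.6 FPKM in WT and at 2.13 and 2.77 FPKM in Hira-null. The groups did not overlap on either day, and the highest Hira-null library, at 4.26 FPKM, lay well below the lowest WT library, at 17.6 FPKM. The mean FPKM was 5.24 times higher in WT at day 0 and 7.23 times higher at day 15. On the log2(FPKM + 1) scale the differences were -2.14 ± 0.12 SE (adjusted p = 1.48e-05) and -2.45 ± 0.13 SE (adjusted p = 1.12e-05). The gap between those differences, -0.30, was not called (95% interval -0.71 to 0.10, adjusted p = 0.218).

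Hand1 was already present in stem cells and did not rise with differentiation. Its level fell by 0.59 on the log2 scale from day 0 to day 15 in Hira-null (adjusted p = 0.00241). In WT the change was -0.29 (95% interval -0.57 to 0.00, adjusted p = 0.0710), and this crossed the threshold when the fit held only the 4 WT libraries (adjusted p = 0.0283) or left out either Hira-null library of day 15 (adjusted p = 0.0401 and 0.0418). Hand1 is also a trophoblast gene, so 8 trophoblast markers were summed beside it. They gave 16.6 to 17.0 FPKM in WT and 16.8 to 18.5 FPKM in Hira-null at day 0, where 1 of the 3 markers tested was called higher and none lower, and Tpbpa, Prl3d1 and Prl2c2, markers of the later lineage, were at 0 in every library of that day. At day 15 the sums were 8.20 to 8.24 FPKM in WT and 3.02 to 4.27 FPKM in Hira-null, with 2 of 3 tested markers lower. Over all genes tested, 20.8% were called higher at day 0 and 18.8% lower at day 15. The part of the trophoblast markers in the Hand1 result was not tested on either day.

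Hand2 (chr8:59799780-59803314, plus strand) behaved differently, since it was nearly absent from stem cells of both genotypes. The libraries of day 0 held 0 and 5 fragments in WT and none in Hira-null, or 0 and 0.265 FPKM against 0 and 0 FPKM. At day 15 the level was 37.8 and 34.8 FPKM in WT and 7.03 and 6.44 FPKM in Hira-null. Hand2 thus had the highest FPKM of the 8 factors in WT cultures, and in the libraries labelled Hira-null it came after Srf, Mef2d and Mef2a. The WT mean was 5.39 times higher (log2 fold change -2.27 ± 0.16 SE, adjusted p = 5.06e-05), and the groups did not overlap.

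The rise of Hand2 from day 0 was large in both lines. In WT the ratio of fragments at day 15 to day 0, scaled by library, was 255 (95% exact counting interval 109 to 787). In Hira-null, with no fragment at day 0, the level was at least 34.5-fold higher at day 15, taking 3 fragments per library as the floor. Intervals and floors of this kind cover counting error only. On the log2(FPKM + 1) scale the rises were 5.05 ± 0.16 SE in WT and 2.95 ± 0.16 SE in Hira-null, and the genotype effect was 2.10 more negative at day 15 than at day 0 (log2 difference -2.10 ± 0.23 SE, adjusted p = 0.000444). The value at day 0 sits at the floor of the scale, and with a pseudocount of 0.1 this difference became -1.48 and was not called (adjusted p = 0.160). With voom on the recovered fragments it was -0.66 (adjusted p = 0.758).

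The HAND transcripts were also summed per library, with no test of the sum. The summed FPKM of Hand1 and Hand2 was 21.0 and 22.8 in WT and 4.07 and 4.26 in Hira-null at day 0, and 55.6 and 52.4 against 9.16 and 9.21 at day 15. Hand1 made up 98.8% or more of the sum in every library of day 0. By day 15 Hand2 held the larger share in each line, at 67.2% ± 1.07 (SD, n = 2) in WT and 73.3% ± 4.82 in Hira-null. The highest Hira-null sum of day 15 lay below the lowest WT sum of day 0. Among other sources of these transcripts, 6 sympathetic neuron markers, a lineage in which HAND2 acts, summed to 20.1 to 22.0 FPKM in WT and 19.3 to 19.6 FPKM in Hira-null at day 15, with 1 of 4 tested markers higher and 1 lower. Mesenchyme markers (6 genes) were at 1573 to 1763 FPKM in WT and 559 to 731 FPKM in Hira-null, with 5 of 6 called lower and none at 0. Visceral endoderm was read only as a cell type that the cultures could hold, and not as a known source of HAND transcripts. Its markers (4 genes) were at 103 to 105 FPKM in WT and 3.08 to 3.74 FPKM in Hira-null, with all 4 called lower. For these marker counts, the shares over all genes tested at day 15 were 18.8% lower and 18.6% higher. The part of any of these cell types in the lower Hand2 level was not tested.

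**Figure D2:**
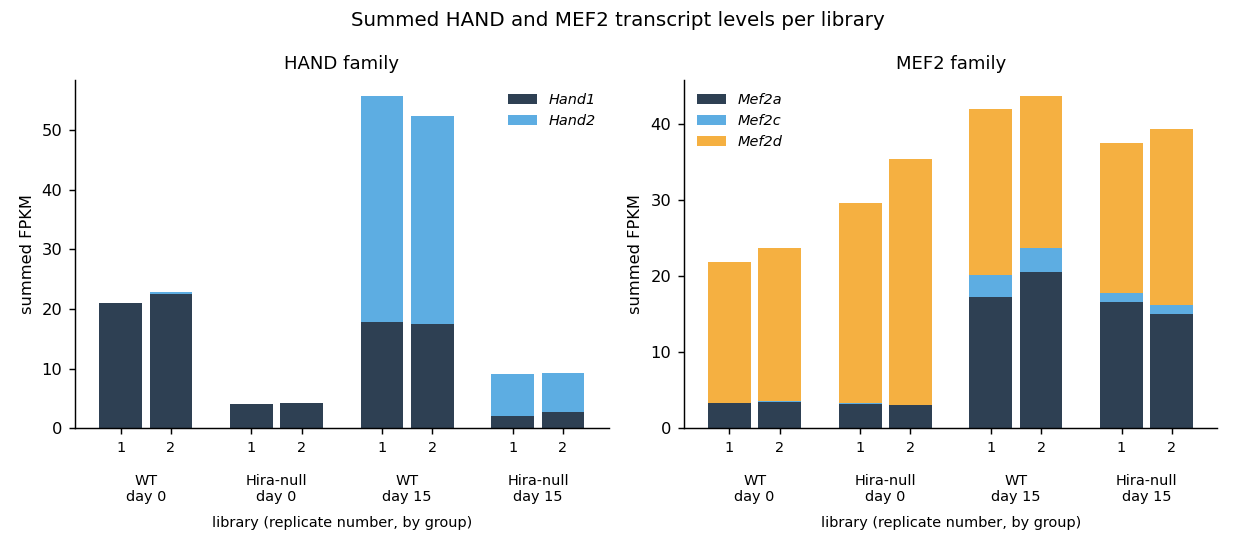
Summed FPKM of the HAND genes and of the MEF2 genes (vertical axes) in each library (bars, by group and replicate number), split by gene. The HAND sum differs between the lines on both days, at 55.6 and 52.4 in WT against 9.16 and 9.21 in Hira-null at day 15, while the MEF2 sums at day 15 lie between 37.6 and 43.7.

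Isl1 (chr13:117088478-117099896, minus strand), the gene of the second heart field factor, followed the pattern of Hand2 at a lower level. The WT libraries of day 0 held no Isl1 fragment, and the Hira-null libraries held 0 and 1. At day 15 the level was 8.66 and 10.1 FPKM in WT, from 206 and 299 fragments, and 1.56 and 2.41 FPKM in Hira-null, from 35 and 58 fragments. The groups of day 15 did not overlap, and no Hira-null library reached the level of a WT library. The WT mean was 4.73 times higher (log2 fold change -1.81 ± 0.19 SE, adjusted p = 0.000197). The level at day 15 was at least 58.1-fold above the floor of day 0 in WT, and the scaled fragment ratio in Hira-null was 79.0 (95% exact counting interval 13.8 to 3154), which rests on 1 fragment. The genotype effect was lower at day 15 than at day 0 by the log2 difference -1.84 ± 0.26 SE (adjusted p = 0.00126), and with limma's voom weights on the recovered fragments the difference was -3.11 and was not called (adjusted p = 0.109).

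Isl1 is also a gene of motor and sensory neurons and of pancreatic islets. Motor neuron markers (6 genes) summed to 5.41 to 7.11 FPKM in WT and 3.44 to 4.33 FPKM in Hira-null at day 15, with 1 of the 3 tested markers called higher and 1 lower. Sensory neuron markers (5 genes) were at 15.4 to 15.8 FPKM in WT and 23.5 to 24.6 FPKM in Hira-null, with 2 of 5 called higher and none lower. General neuron markers (6 genes) went the opposite way to Isl1 at day 15, at 94.8 to 98.1 FPKM in WT and 236 to 243 FPKM in Hira-null, and all 6 were called higher. In the stem cells of day 0 that sum was 203 to 204 FPKM in WT and 229 to 236 FPKM in Hira-null, so it does not read neurons alone. The islet hormone genes Ins1, Ins2, Gcg and Iapp were at 0 in every WT library and summed to at most 0.690 FPKM in Hira-null at day 15. These counts stand beside 18.6% of all genes called higher and 18.8% called lower at day 15. The part of any of these sources in the Isl1 result was not tested.

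Nkx2-5 (chr17:26975609-26978510, minus strand) was low and did not separate the lines. At day 0 it stood at 0.535 and 0.311 FPKM in WT and 0.287 and 0.672 FPKM in Hira-null, from 3 to 9 fragments a library. At day 15 it stood at 2.58 and 1.06 FPKM in WT, from 37 and 19 fragments, and at 1.99 and 2.55 FPKM in Hira-null, from 27 and 37 fragments. The WT libraries enclosed the Hira-null libraries. The difference at day 15 was 0.26 with a 95% interval of -0.36 to 0.88 (adjusted p = 0.485), an interval that takes in differences of either sign. The day 0 difference was 0.05, with an interval of -0.55 to 0.65.

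Nkx2-5 was higher at day 15 than at day 0 in both lines, by 1.15 ± 0.27 SE in Hira-null (adjusted p = 0.00385) and 0.94 ± 0.27 SE in WT (adjusted p = 0.0121). The scaled fragment ratio in WT was 4.19 (95% exact counting interval 2.12 to 9.21). The WT rise depended on single libraries: it was 0.54 (adjusted p = 0.121) without replicate 1 of WT at day 15, 0.82 (adjusted p = 0.0539) without replicate 2 of WT at day 0, and 0.44 (adjusted p = 0.185) after quantile normalization. The genotype effect did not differ between days beyond its error (0.21, 95% interval -0.65 to 1.08).

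**Figure D3:**
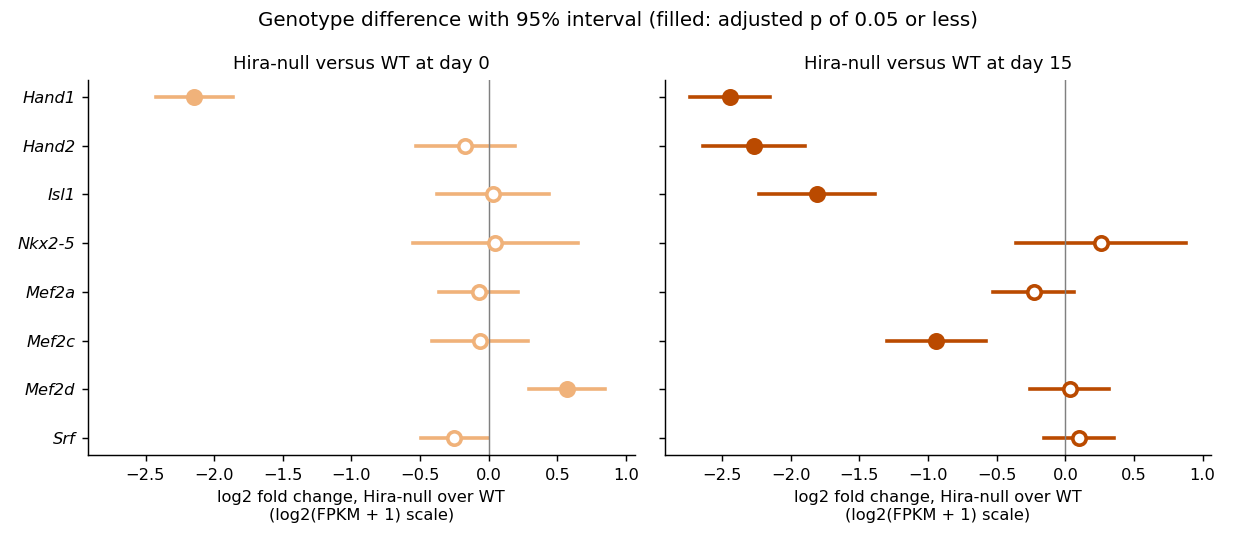
Log2 fold change of Hira-null over WT on the log2(FPKM + 1) scale (horizontal axis) for the 8 factors at day 0 and day 15, with the 95% interval as a line and filled points at an adjusted p of 0.05 or less. At day 0 only Hand1 and Mef2d are filled, and at day 15 Hand1, Hand2, Isl1 and Mef2c, all to the left of 0.

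The MEF2 genes divided by member. Mef2c, the earliest of the family in the heart fields, was close to absent at day 0 and lower in Hira-null at day 15. Mef2a rose with differentiation in each line, and Mef2d was at 18.5 FPKM or more in all 8 libraries. Mef2b, the remaining family member, had group means of at most 0.666 FPKM and did not pass the filter.

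Mef2c (chr13:83643033-83806684, plus strand) stood at 0.103 and 0.0361 FPKM in WT and 0.0443 and 0 FPKM in Hira-null at day 0, from 5, 2, 2 and 0 fragments. At day 15 it was at 2.91 and 3.21 FPKM in WT and 1.15 and 1.09 FPKM in Hira-null. The groups of day 15 did not overlap, and the spread within each was small beside the gap. The mean was 2.74 times higher in WT (log2 fold change -0.94 ± 0.16 SE, adjusted p = 0.00213). The scaled fragment ratio of day 15 to day 0 was 45.6 in WT (95% exact counting interval 22.0 to 114) and 57.3 in Hira-null (15.6 to 478), intervals that overlap. The genotype effect at day 15 minus day 0 was -0.87 ± 0.22 SE (adjusted p = 0.0158), but it turned to 0.31 (adjusted p = 0.874) with voom on the recovered fragments, and was -0.84 (adjusted p = 0.0548) without replicate 1 of Hira-null at day 0 and -0.82 (adjusted p = 0.0640) without replicate 2 of WT at day 15. With a pseudocount of 0.1 the difference of genotype effects was -0.91 and was not called (adjusted p = 0.298). The mean FPKM was already 3.15 times higher in WT at day 0. The levels of day 0 rest on 7 fragments in WT and 2 in Hira-null.

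Mef2a (chr7:74376049-74517744, minus strand) stood at 3.28 and 3.50 FPKM in WT and 3.26 and 3.08 FPKM in Hira-null at day 0. At day 15 it stood at 17.2 and 20.5 FPKM in WT and 16.7 and 15.1 FPKM in Hira-null. The means rose 5.57-fold in WT and 5.01-fold in Hira-null (log2 changes 2.17 ± 0.13 SE and 2.02 ± 0.13 SE, adjusted p = 1.18e-06 and 1.16e-06). The difference between lines at day 15 was -0.23 with a 95% interval of -0.53 to 0.06 (adjusted p = 0.195). The lowest WT library lay above the highest Hira-null library by less than the WT libraries differed from each other, and voom on the recovered fragments called the difference (-0.25, adjusted p = 0.0355).

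Mef2d (chr3:87946294-87976008, plus strand) shares exon positions with 1700113A16Rik on the other strand, so its reads are less certain if strand was not used in counting. It stood at 18.5 and 20.2 FPKM in WT and 26.3 and 32.4 FPKM in Hira-null at day 0, where the Hira-null libraries were higher and did not overlap with WT (log2 fold change 0.57 ± 0.12 SE, adjusted p = 0.00611). At day 15 it stood at 21.9 and 19.9 FPKM in WT and 19.8 and 23.1 FPKM in Hira-null, which overlap (0.03, 95% interval -0.25 to 0.32, adjusted p = 0.864). The excess at day 0 rested in part on the higher library. Without replicate 2 of Hira-null at day 0 it was 0.43 (adjusted p = 0.0588), and the decline from day 0 to day 15 in Hira-null (-0.43, adjusted p = 0.0114) became -0.29 (adjusted p = 0.102). Without replicate 1 of Hira-null at day 15 that decline was -0.32 (adjusted p = 0.0686). Between the days the genotype effect shifted by the log2 difference -0.54 ± 0.18 SE (adjusted p = 0.0424). That call held in 10 of 19 alternatives, single libraries left out among them, with differences from -0.68 to -0.39. It was lost with no filter on low values (adjusted p = 0.0661), after quantile normalization (adjusted p = 0.0504) and without the intensity trend (adjusted p = 0.0721).

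The summed FPKM of the 3 MEF2 genes was 21.9 and 23.7 in WT and 29.6 and 35.4 in Hira-null at day 0, and 42.0 and 43.7 against 37.6 and 39.3 at day 15. Mef2d made up 84.8% ± 0.365 (SD, n = 2) of the sum in WT stem cells and 48.9% ± 4.57 in WT cultures, as Mef2a rose to 44.0% ± 4.27. Mef2c held 7.14% ± 0.302 of the sum in WT and 2.91% ± 0.197 in Hira-null at day 15. Cells other than heart progenitors use Mef2c as well. At day 15, 4 skeletal muscle markers summed to 4.71 to 5.07 FPKM in WT and 0.0539 to 0.227 FPKM in Hira-null, with Myf6 at 0 in both groups and Myog at 0 in Hira-null. Endothelial markers (6 genes) were at 37.6 to 38.4 FPKM in WT and 15.4 to 16.5 FPKM in Hira-null, with 4 of 6 called lower and 2 not called. Their sum was higher in the stem cells of day 0, at 62.8 to 65.0 FPKM in WT and 67.3 to 71.8 FPKM in Hira-null, so it does not read endothelium alone. Neuron markers (6 genes) went the other way, with all 6 called higher in Hira-null at day 15. Among all genes tested at day 15, 18.8% were called lower and 18.6% higher. The part of any of these cell types in the Mef2c result was not tested.

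Srf (chr17:46683788-46693111, minus strand) varied least of the 8 over the libraries, with an SD of 0.19 for its log2(FPKM + 1) values. It stood at 19.4 and 21.2 FPKM in WT and 18.2 and 15.7 FPKM in Hira-null at day 0, and at 22.4 and 20.8 FPKM in WT and 21.8 and 24.8 FPKM in Hira-null at day 15. The groups of day 15 overlap, and the difference was 0.10 with a 95% interval of -0.15 to 0.35 (adjusted p = 0.513). At day 0 it was -0.25 (adjusted p = 0.0979), with the Hira-null libraries below both WT libraries. Srf rose from day 0 to day 15 in Hira-null by 0.44 ± 0.11 SE (adjusted p = 0.00577), which became 0.34 (adjusted p = 0.0526) without replicate 2 of Hira-null at day 0. In WT the change was 0.09 (adjusted p = 0.507). The difference of these changes, 0.35, was not called (adjusted p = 0.111).

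Over the time course, 5 of the 8 factors rose in WT (Hand2, Isl1, Mef2a, Mef2c and Nkx2-5) and none was called lower, where 36.1% of all genes tested were called higher and 33.4% lower. In Hira-null 6 rose, the same 5 and Srf, and Hand1 and Mef2d fell, against 37.5% and 36.4% of all genes. The median log2 change of the 8 was 1.43 in WT and 1.10 in Hira-null, against 0.03 and 0.01 over all genes. The genotype effect was called more negative at day 15 than at day 0 for Hand2, Isl1, Mef2c and Mef2d and more positive for none, where 17.7% and 17.5% of all genes were called in those directions. The comparisons share libraries, so these counts are not independent of one another.

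Ordered by mean FPKM, which is per length and can be set side by side between genes, the factors changed places with time. In WT stem cells Hand1, Srf and Mef2d led at 21.8 ± 1.08 (SD, n = 2), 20.3 ± 1.28 and 19.3 ± 1.17 FPKM, with overlapping libraries, and Mef2a followed at 3.39 ± 0.160 FPKM. In Hira-null stem cells Mef2d led at 29.3 ± 4.29 FPKM, then Srf at 16.9 ± 1.79 FPKM, and Hand1 came next at 4.16 ± 0.136 FPKM, with no overlap between these neighbours. In WT cultures Hand2 stood alone at 36.3 ± 2.14 FPKM, and Srf, Mef2d, Mef2a and Hand1 followed between 21.6 and 17.7 FPKM, each overlapping its neighbour. In the libraries labelled Hira-null at day 15 Srf, at 23.3 ± 2.14 FPKM, and Mef2d, at 21.4 ± 2.37 FPKM, overlapped at the top. Hand2 had gone to 6.73 ± 0.417 FPKM there, and Hand1, Nkx2-5 and Isl1 overlapped in turn at 2.45, 2.27 and 1.98 FPKM.

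Across the 8 libraries, the log2(FPKM + 1) values of Hand2, Isl1 and Mef2c ran closely together, with Pearson's r of 0.988 for Hand2 and Isl1, 0.996 for Hand2 and Mef2c and 0.993 for Isl1 and Mef2c. These points share the step from day 0 to day 15, so the values describe that step as much as the genotype. Hand1 stood apart, with r of 0.12 with Hand2, 0.17 with Isl1 and 0.15 with Mef2c. Among 7196 genes whose values varied enough to be compared, those most like Hand1 were Chmp3, Hmox1 and Srgn (r of 0.985, 0.985 and 0.984), and their mean levels were lower in Hira-null on each day. Srgn, which encodes the granule proteoglycan serglycin, had means of 28.8 and 0.951 FPKM in WT and Hira-null at day 0 and 13.7 and 0.355 FPKM at day 15. Those most like Hand2 were Col23a1, Unc5c and Adamts2, those most like Isl1 were Evx1, Wnt2 and Tbx2, and those most like Mef2c were Dnm3os, Unc5c and Mpeg1. Unc5c, a netrin receptor gene, was shared by the Hand2 and Mef2c sets and stood at 16.6 FPKM in WT and 4.07 FPKM in Hira-null at day 15. For Mef2a they were Prrx1, Angpt1 and Sdpr, and for Nkx2-5, with few fragments, 2700069I18Rik, Camk1g and Mgat5. Mef2d and Srf varied too little over the libraries to be searched. The genes most like a member were picked over these same 8 libraries, so their directions follow from that choice and are not independent evidence.

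Lists of partners, relatives and targets are given next as counts, to be read against the 18.6% of all genes called higher and the 18.8% called lower at day 15. Of 22 partners and regulators, 21 were tested, and at day 15 in the libraries labelled Hira-null 3 were higher, 2 lower and 16 not called, with a median of 0.06. The E protein genes Tcf3 and Tcf4, which encode the dimer partners of HAND proteins, were not called, and Tcf12 was higher at 62.0 ± 4.03 FPKM against 46.4 ± 2.26 FPKM in WT (log2 fold change 0.41, adjusted p = 0.00784). Of the cofactors that ISL1 binds, Ldb1 was not called, while Ldb2, its relative, was lower at 1.77 ± 0.0539 FPKM against 6.22 ± 0.0218 FPKM (-1.38 ± 0.16 SE, adjusted p = 0.000313). Mkl1, which encodes the actin-regulated SRF coactivator MRTF-A, was higher at 18.3 ± 2.80 FPKM against 12.8 ± 1.24 FPKM (0.48, adjusted p = 0.0211), and Myocd, the muscle coactivator of SRF, was not called. Hopx, a homeodomain protein that opposes SRF, was higher (0.59, adjusted p = 0.0359), and Mapk7, the kinase ERK5 that activates MEF2, was lower (-0.52, adjusted p = 0.00749). Without replicate 1 of WT at day 15 none of the 21 was called higher and 1 lower, without replicate 2 of WT 1 and 2, and without replicate 1 of Hira-null 5 and 2. Voom on the recovered fragments called 6 higher. Over all genes, leaving out replicate 1 of WT at day 15 took the calls from 2690 to 1193 lower and from 2673 to 1348 higher.

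Of 10 close relatives of the members, 7 were tested at day 15, of which 1 was higher, 3 lower and 3 not called, with a median of -0.02. Tcf21, a basic helix-loop-helix gene of epicardial and mesenchymal cells, was lower by the widest margin of the 7 at 0.937 ± 0.356 FPKM against 19.6 ± 0.915 FPKM in WT (-3.42 ± 0.17 SE, adjusted p = 1.10e-05), and it was at 0 in all libraries of day 0. Twist2 was lower at 4.01 ± 0.105 FPKM against 9.68 ± 2.56 FPKM (-1.07, adjusted p = 0.0166), and Twist1, its neighbour in the family, was not called. Nkx2-3 was lower (-0.67, adjusted p = 0.0297), and Tcf15, a gene of paraxial mesoderm, was higher (0.62, adjusted p = 0.0126). Leaving out either WT library of day 15 left 1 relative called lower and none higher, and a pseudocount of 0.1 or 0.5 also left 1 lower.

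All 23 heart field signals and markers were tested at day 15, of which 10 were lower, 2 higher and 11 not called, with a median of -0.37. Pdgfra, the PDGF receptor of cardiac mesoderm, was at 5.63 ± 0.547 FPKM against 26.0 ± 0.784 FPKM in WT (-2.03 ± 0.13 SE, adjusted p = 3.15e-05), and it was lower at day 0 too (-1.67). Mesp1, the factor of the earliest cardiac mesoderm, was at 0.0488 ± 0.0690 FPKM against 1.33 ± 0.205 FPKM (-1.15, adjusted p = 0.00113). Foxf1 and Fgf10, genes of the posterior and anterior second heart field, were also lower (-1.13 and -0.65), and the receptor gene Kdr was not called. At day 0, 7 of the 23 were lower, Fgf10 among them (-0.53), and 4 were higher. The shares of all genes called on that day were 19.4% lower and 20.8% higher. Pdgfra and Foxf1 here, and Tcf21, Myl2, Nppa and Casq2 in the other lists, were among genes the study picked on these libraries, so their directions are not independent evidence. Foxc1, a forkhead gene of head and somite mesoderm, was higher at 14.4 ± 0.480 FPKM against 8.32 ± 0.482 FPKM (0.72, adjusted p = 0.00743). Tdgf1, the Nodal coreceptor gene, was higher at day 15 (0.52, adjusted p = 0.00686) and already at day 0 (0.46, adjusted p = 0.00936). Without replicate 1 of WT at day 15, 3 of the 23 were called lower and none higher, and without replicate 2, 5 and 1.

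**Figure D4:**
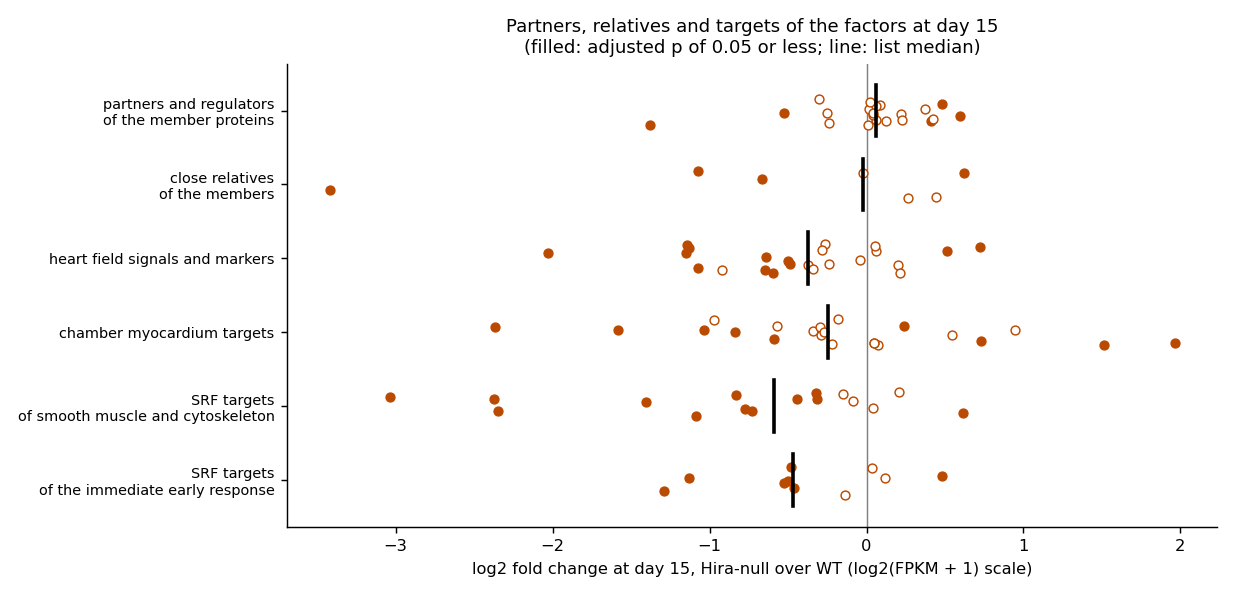
Log2 fold change at day 15 of Hira-null over WT on the log2(FPKM + 1) scale (horizontal axis) for the tested genes (points) of 6 lists of partners, relatives and targets (rows), with filled points at an adjusted p of 0.05 or less and a black line at the list median. The partners centre near 0 at 0.06, and both lists of SRF targets have medians below 0, at -0.59 and -0.47.

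Genes of the chamber myocardium, which NKX2-5, MEF2 and HAND proteins are known to bind, were called in either direction at shares near those of all genes. Of 26 listed, 22 were tested at day 15, of which 4 were higher, 5 lower and 13 not called, with a median of -0.25, where 18.6% of all genes were called higher and 18.8% lower. Myl7, the atrial light chain, was at 12.1 ± 0.307 FPKM against 66.9 ± 2.80 FPKM in WT (-2.37 ± 0.11 SE, adjusted p = 7.68e-06), and Myl2, the ventricular light chain, at 4.69 ± 0.872 FPKM against 16.0 ± 0.817 FPKM (-1.59, adjusted p = 0.00104). Nppa, the atrial natriuretic peptide gene and a target of NKX2-5, was higher at 5.03 ± 0.228 FPKM against 0.552 ± 0.238 FPKM (1.97 ± 0.17 SE, adjusted p = 9.86e-05). Casq2, the calcium store protein of cardiac muscle, was higher too, at 3.71 ± 0.132 FPKM against 0.652 ± 0.153 FPKM (1.51, adjusted p = 0.000238). In the day comparison of WT, 20 of the 22 rose, and in Hira-null 19, where 36.1% and 37.5% of all genes tested were called higher. Without replicate 1 of WT at day 15, 2 of the 22 were called lower and 2 higher, without replicate 2 of WT 3 and 3, without replicate 1 of Hira-null 5 and 2, and without replicate 2 of Hira-null 3 and 1. Voom on the recovered fragments called 8 of them lower, and a pseudocount of 0.1 left 2 lower. The summed level of the 7 cardiomyocyte markers was 169 to 173 FPKM in WT and 114 to 124 FPKM in Hira-null. Myl7, with the levels given above, is among the 7 and weighs heavily on the difference of the sums. Of the 7, 3 were called lower, 1 was called higher and 3 were not called. All 7 were at FPKM 1 or more in both Hira-null libraries.

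Genes that SRF is known to bind at muscle and cytoskeletal promoters were listed beside Srf. Of 16 SRF targets of smooth muscle and the cytoskeleton, 11 were lower at day 15, 1 was higher and 4 were not called, with a median of -0.59. Des, the intermediate filament gene of muscle, was at 2.28 ± 0.945 FPKM against 25.3 ± 0.761 FPKM in WT (-3.03 ± 0.19 SE, adjusted p = 2.82e-05), and Cnn1, calponin, at 3.49 ± 1.50 FPKM against 21.7 ± 2.39 FPKM (-2.37 ± 0.25 SE, adjusted p = 0.000212). Tpm1, a tropomyosin gene, was higher at 440 ± 28.4 FPKM against 287 ± 5.01 FPKM (0.61, adjusted p = 0.000455), whereas it was lower at day 0 (-1.03). At day 0, 8 of the 16 were lower and none higher, where 19.4% of all genes were called lower and 20.8% higher. The 4 smooth muscle markers, all of them in this list, summed to 962 to 1058 FPKM in WT and 663 to 669 FPKM in Hira-null at day 15, and to 110 to 120 FPKM against 43.6 to 48.0 FPKM at day 0. Without replicate 1 of WT at day 15, 7 of the 16 were called lower and 1 higher.

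Of 10 SRF targets of the immediate early response, 6 were lower at day 15, 1 was higher and 3 were not called, with a median of -0.47. Egr3 and Fosb were lower, at 2.23 ± 0.413 and 11.7 ± 1.32 FPKM against 6.88 ± 0.580 and 26.8 ± 1.29 FPKM in WT (-1.29 and -1.13, adjusted p = 0.000532 and 0.000449). Ctgf, a matrix protein gene that responds to both SRF and YAP, was higher (0.48, adjusted p = 0.00128). At day 0 the directions were mixed, with 5 lower and 2 higher, against 19.4% and 20.8% of all genes. Ctgf was lower (-1.97), while Fos and Fosb were higher (2.88 and 1.62). Without replicate 1 of WT at day 15, 3 of the 10 were called lower and 1 higher.

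**Figure D5:**
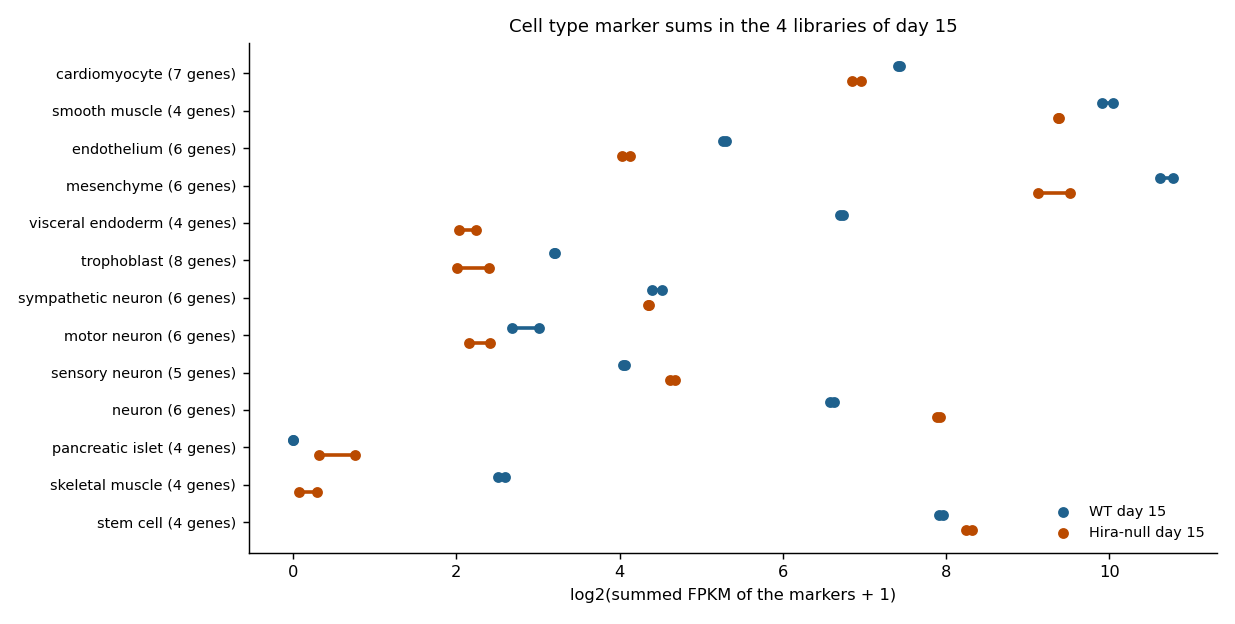
Summed FPKM of each cell type marker list, as log2(sum + 1) (horizontal axis), in the 2 WT and 2 Hira-null libraries of day 15 (points, joined within a group). Visceral endoderm, mesenchyme, endothelium and smooth muscle sums were lower in Hira-null, and neuron sums were higher, at 236 to 243 FPKM against 94.8 to 98.1 FPKM.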

How the data were processed

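RNA-seq of 8 libraries in 4 groups (WT and Hira-null, day 0 and day 15, 2 biological samples each) was used. The authors extracted RNA with TRIzol, made stranded, paired-end libraries, aligned reads to mm9 with Bowtie 0.12.2 and deposited FPKM values of 24421 genes. The use of strand in counting was not found in the labels or methods. The submitters' processing notes name DESeq2 1.6.3. The authors' own comparison tables (mean normalized counts, fold changes with errors, test statistics, p-values and adjusted p-values) were not used.

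FPKM values gave whole fragments for 100% of genes above 0 (tolerance 0.005 fragment), 6914086 to 11106726 per library, and the library scale followed median-ratio factors. Tests were made with limma 3.58.1 in R 4.3.3 on log2(FPKM + 1) for the 14337 genes that reached an FPKM of 1 in 2 or more libraries, with 4 group means, a weight per day (1.03 and 0.968), an intensity trend and Benjamini-Hochberg adjustment at 0.05. Folds on this scale understate changes of low genes. Errors are SD (n = 2) or SE. Replicates differed by more than counting error (chi-square per degree of freedom 2.90 to 5.94).

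The members and gene lists were chosen with earlier results of these data known. Named genes are the 8 members and Hira, the 3 genes most like each member that varied (SD of 0.5 or more), and the 2 called genes with the greatest fold in each direction per list; others were named after their values were seen. Gene positions are from the NCBIM37 annotation and promoters from RefSeq. Alternatives were other pseudocounts, filters, scalings, weights, a replicate block, a fold of 2, only the compared libraries and leaving out each library, and, chosen after seeing the data, voom on recovered fragments and scaling to fragments counted.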

Additional observations from a re-analysis of the deposited data

Results flagged for a closer look

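The genotype effect of 4 factors was called different between day 0 and day 15 by the interaction test in limma. Values are the log2 difference at day 15 minus that at day 0, on the log2(FPKM + 1) scale. Hand2 gave -2.10, from a difference of -0.17 at day 0 and -2.27 at day 15. Isl1 gave -1.84, from 0.03 and -1.81. Mef2c gave -0.87, from -0.07 and -0.94. Its mean FPKM, however, was 3.15 times higher in WT at day 0 and 2.74 times higher at day 15. With a pseudocount of 0.1 the Mef2c value was not called (adjusted p = 0.298). Mef2d gave -0.54, from 0.57 at day 0 and 0.03 at day 15, and was called in only 10 of 19 alternatives. For Hand2, Isl1 and Mef2c the levels of day 0 rest on few fragments, at most 5 in any 1 library, and for Mef2d the value comes from the higher level in undifferentiated Hira-null cells. Groups of 2 libraries are too small for a check of single outlying samples.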

How the results depend on the processing

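The calls at day 15 for Hand1, Hand2, Isl1 and Mef2c held under 20 alternatives, and only the added requirement of a fold of 2 on the log2(FPKM + 1) scale left 3, without Mef2c. Where a group was left with 1 library, that library was assumed to vary like the others. At day 0 the number of members called went from 2 to 1 when a fold of 2 was also required, and ranged from 1 to 2 when single libraries were left out. In Hira-null over time it went from 8 to 5 with the fold of 2. For the difference of genotype effects it went from 4 to 2 with a pseudocount of 0.1 or the fold of 2 and to 1 with voom on the recovered fragments, and ranged from 2 to 4 when single libraries were left out. In that voom fit the Mef2c difference turned from -0.87 to 0.31. Day 15 over day 0 in WT gave 5 members called and 4 to 6 when single libraries were left out, and in Hira-null 6 to 8. Replicate numbers did not pair the samples (correlations of their deviations from -0.0967 to 0.0455), and the fit with a replicate block gave 4 members called at day 15 and changed no member's call. Scaling to fragments counted moved the median of all genes over time in WT from 0.03 to 0.14 and changed no member's call. Few fragments at day 0 limit Hand2, Isl1, Mef2c and Nkx2-5.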
